A study of Arabidopsis thaliana with 6 samples.

Results

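The 9 *GROWTH-REGULATING FACTOR* genes of *Arabidopsis thaliana*, *GRF1* to *GRF9*, and *GRF-INTERACTING FACTOR1* (*GIF1*, also *ANGUSTIFOLIA3*) were examined, 10 of the 32678 genes listed for each library. They were chosen by gene family and found by locus identifier, because the reference annotation also gives the symbol *GRF1* to a gene of the 14-3-3 family. RNA came from inflorescence tips bearing flowers no older than stage 12, in 3 samples of wild type and 3 of *bpcV*. Both genotypes are in the Columbia-0 background, were untreated and grew at 20 to 22 °C with 16 h of light and 8 h of darkness. *bpcV* is a quintuple mutant that combines *bpc1-2* with *bpc2*, *bpc3*, *bpc4* and *bpc6*. It so has mutations in 5 BASIC PENTACYSTEINE genes of classes I and II in every cell. The question behind the comparison was which genes depend on BPC factors at the stages when the pistil is built. The number of plants in a sample and their age are not given in the sources used here.

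GRF proteins are plant transcription factors with a QLQ domain, which binds GIF proteins, and a WRC domain, which binds DNA. GIF proteins do not bind DNA themselves; they are co-activators that bring the SWI/SNF chromatin remodelling complex to GRF targets. GRF-GIF pairs keep cells dividing in young organs, leaves and carpels among them. The microRNA miR396 cleaves the messages of most *GRF* genes as organs mature. TCP4, a TCP factor of the CINCINNATA type and itself a target of miR319, raises miR396 levels in leaves, so that more TCP4 is known to mean less *GRF* message there.

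The target sites in the *GRF* messages are shown first, since they split the family into genes with a miR396 site and genes without one. The mature 5p strands of both miR396 genes, read from the RefSeq annotation of TAIR10.1, have 21 bases and share the seed UCCACAG, bases 2 to 8, which is in capitals here.
miR396a-5p, chr2:4142443-4142463, minus strand: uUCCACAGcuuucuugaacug
miR396b-5p, chr5:13611808-13611828, plus strand: uUCCACAGcuuucuugaacuu
The strands differ in their last base. A search of the longest coding sequence of each gene, with at most 1 unpaired target base, a penalty of 1 per mismatch and 0.5 per G:U pair and a limit of 4, found a site in 7 of the 9 *GRF* genes. Capitals below mark the bases that face the seed, and every site is written on the strand of the message, 5′ to 3′.
*GRF1*, chr2:9729944-9729965, plus strand: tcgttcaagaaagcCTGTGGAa
*GRF2*, chr4:17726404-17726425, minus strand: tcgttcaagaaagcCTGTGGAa
*GRF3*, chr2:15271745-15271766, minus strand: ccgttcaagaaagcCTGTGGAa
*GRF4*, chr3:19617293-19617314, minus strand: ccgttcaagaaagcCTGTGGAa
*GRF7*, chr5:21795145-21795166, plus strand: tcgttcaagaaagCaTGTGGAa
*GRF8*, chr4:12538649-12538670, plus strand: tcgttcaagaaagCaTGTGGAa
*GRF9*, chr2:18746292-18746313, plus strand: acgttcaagaaagCtTGTGGAa
These were 4 distinct sequences of 22 bases, shared by *GRF1* and *GRF2*, by *GRF3* and *GRF4*, and by *GRF7* and *GRF8*. In *GRF7*, *GRF8* and *GRF9* the unpaired base lies inside the capitals, and in *GRF1* to *GRF4* it may be either of 2 neighbouring C bases. The penalties were 1.0 in *GRF3*, *GRF4* and *GRF9* and 1.5 in the other 4 genes. All 7 sites lie in coding exons, the third exon in *GRF1*, *GRF2*, *GRF3* and *GRF4*, exon 2 in *GRF7* and *GRF9* and exon 5 in *GRF8*. The same limit was met by 5.08% of the 27444 coding sequences searched, whereas a penalty of 1.5 or less was met by 9 genes in all, these 7 included.

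*GRF5* and *GRF6* had no site within the limit, with lowest penalties of 6.0 and 5.5, and neither had *GIF1*, at 4.5. The stretch of *GRF5* that lines up with the *GRF3* site, without gaps, is shown with capitals at each base that differs from *GRF3*.
*GRF5*, chr3:4609155-4609176, plus strand: ccgtGcCagaaaATctCtTgaT
It matched *GRF3* at 15 of the 22 bases.

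*GIF1* was the most abundant of the 10 messages and *GRF3* the most abundant of the *GRF* messages. Levels between genes are given as TPM, the length-scaled abundance of RSEM, which the authors scaled by effective gene length. In wild type, *GIF1* (AT5G28640, chromosome 5, 10647467 to 10650066) had 71.2 ± 6.85 TPM (mean ± SD, n = 3), above 89.3% of the 25438 genes with any counts. *GRF3* (AT2G36400, chromosome 2, 15270088 to 15273115), a regulator of leaf growth, had 22.9 ± 1.41 TPM and made up 29.8% of the summed TPM of the *GRF* genes. *GRF1* (AT2G22840, chromosome 2, 9728480 to 9731301) followed at 12.5 ± 2.08 TPM and 16.3% of the sum. *GRF8* (AT4G24150, chromosome 4, 12535972 to 12539576) had the lowest wild type mean, 3.38 TPM, which was 6.77-fold below *GRF3* and 21.1-fold below *GIF1*. No *GRF* gene was absent: the lowest expected count of any in a library was 44 and the highest 634.

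The order in wild type was *GIF1*, *GRF3*, *GRF1*, *GRF4*, *GRF5*, *GRF2*, *GRF6*, *GRF7*, *GRF9* and *GRF8*. Neighbours had separate ranges over the 3 libraries at 3 steps, between *GIF1* and *GRF3*, between *GRF3* and *GRF1* and between *GRF4* and *GRF5*, and the ranges overlapped at the other steps. In *bpcV* the order of the means was the same except that *GRF7* stood above *GRF6*. *GRF3* made up 29.0% of the *GRF* sum in the mutant and *GRF1* 19.0%.

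**Figure D1:**
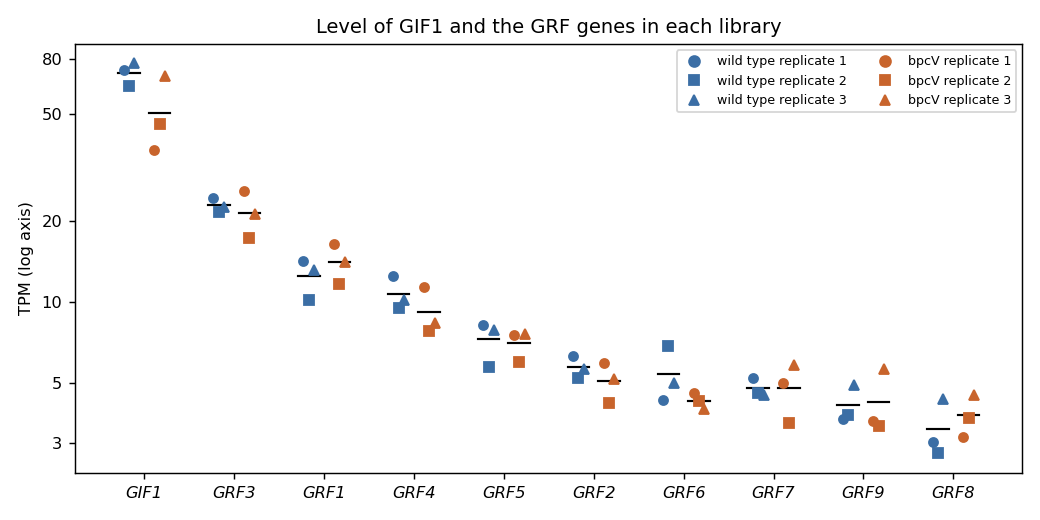
TPM on a log axis of *GIF1* and the 9 *GRF* genes, ordered by their wild type mean, with 1 symbol per library (blue wild type, orange *bpcV*, shape by replicate) and a bar at each mean of 3 libraries. *GIF1* lies near 71.2 TPM in wild type, *GRF3* near 22.9 and *GRF8* near 3.38, and the genotypes overlap for every gene.

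None of the 10 genes was called changed in *bpcV*. The genotypes were compared by edgeR's quasi-likelihood test, adjusted over all 20813 genes tested, at a false discovery rate (FDR) of 0.01, under which 3.89% of the tested genes were called, 1.66% as higher in *bpcV* and 2.23% as lower. All 10 genes passed the filter on low counts. *GIF1* alone had an unadjusted p under 0.05, against 28.3% of all tested genes. DESeq2, the likelihood ratio test of edgeR and limma on log2 TPM also called 0 of the 10, each with 1 unadjusted p under 0.05. The genotypes overlapped in all 10 genes, whereas they did not overlap in 35.8% of tested genes, compared in CPM (counts scaled by library size). Log2 fold changes above 0 mean a higher level in the mutant. Their median over the 10 genes was −0.08, with 4 higher and 6 lower, beside 0.01 over all tested genes.

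*GRF3* had 24.42, 21.66 and 22.56 TPM in wild type replicates 1 to 3 and 25.75, 17.24 and 21.26 TPM in *bpcV*. The mutant held both the highest and the lowest of these values. The log2 fold change was −0.10 (SE 0.139, 95% interval −0.42 to 0.21, adjusted p of edgeR 0.674). *GRF1*, which has been tied to leaf growth with *GRF2* and *GRF3*, had 14.17, 10.18 and 13.21 TPM in wild type and 16.44, 11.67 and 14.04 TPM in *bpcV*. Its difference was 0.16 on the log2 scale, with an interval from −0.20 to 0.51. *GRF2* (AT4G37740, chromosome 4, 17725337 to 17727909) had 6.30, 5.24 and 5.66 TPM in wild type and 5.95, 4.2 and 5.17 TPM in *bpcV*. In *GRF2* only *bpcV* replicate 2 and replicate 3 lay below the wild type range.

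*GRF4* (AT3G52910, chromosome 3, 19615977 to 19618507), which acts in leaf and cotyledon growth, had 12.50, 9.49 and 10.16 TPM in wild type and 11.42, 7.81 and 8.39 TPM in *bpcV*. Mutant replicates 2 and 3 were below every wild type library and replicate 1 was not, and the log2 fold change was −0.23 with an interval from −0.62 to 0.16. *GRF5* (AT3G13960, chromosome 3, 4608076 to 4610497), which promotes leaf cell proliferation together with *GIF1*, had 8.21, 5.75 and 7.86 TPM in wild type and 7.53, 5.99 and 7.58 TPM in *bpcV*. All 3 mutant values of *GRF5* fell inside the wild type range. *GRF6* (AT2G06200, chromosome 2, 2426176 to 2427355) had 4.31, 6.89 and 5.02 TPM in wild type and 4.61, 4.29 and 3.99 TPM in *bpcV*. It had the lowest fold change of the *GRF* genes, −0.32 on the log2 scale (SE 0.227, interval −0.84 to 0.20, adjusted p of edgeR 0.395), with counts of 44 to 70 behind each value.

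*GRF7* (AT5G53660, chromosome 5, 21794177 to 21796092), a known repressor of osmotic stress genes such as *DREB2A*, had 5.21, 4.61 and 4.53 TPM in wild type and 5.0, 3.56 and 5.83 TPM in *bpcV*. Mutant replicate 2 was below the wild type range, replicate 3 above it and replicate 1 within it. *GRF8* had 3.03, 2.74 and 4.37 TPM in wild type and 3.15, 3.70 and 4.52 TPM in *bpcV*. *GRF9* (AT2G45480, chromosome 2, 18745249 to 18747634), reported to restrict leaf growth, had 3.68, 3.80 and 4.94 TPM in wild type and 3.62, 3.47 and 5.63 TPM in *bpcV*. Replicate 3 was the highest for *GRF8* and *GRF9* in both genotypes.

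Over the 9 *GRF* genes the standard errors ran from 0.139 to 0.229 and the adjusted p-values from 0.395 to 0.993 (edgeR). All 9 intervals held 0. The lowest bound was −0.84, in *GRF6*, and the highest 0.69, in *GRF8*. The summed TPM of the 9 genes was 81.83, 70.36 and 78.31 in wild type and 83.47, 61.93 and 76.41 in *bpcV*. The family total thus overlapped too, with means of 76.8 ± 5.88 and 73.9 ± 11.0 TPM. In RNA from whole inflorescence tips, fewer cells of a type and less message per cell cannot be told apart.

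**Figure D2:**
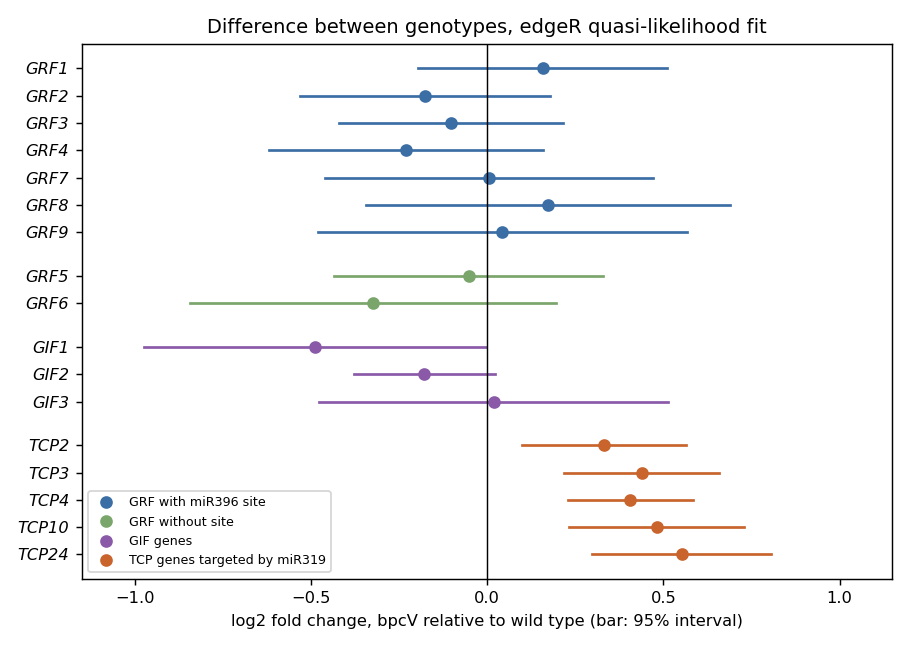
Log2 fold change of *bpcV* relative to wild type, with its 95% interval, for the *GRF* genes with and without a miR396 site, the 3 *GIF* genes and the 5 *TCP* genes that miR319 targets. The intervals of all 9 *GRF* genes cross 0, that of *GIF1* ends just below 0, and those of the *TCP* genes lie above it.

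*GIF1* was the member with the largest difference, at 71.2 ± 6.85 TPM in wild type and 50.5 ± 16.8 TPM in *bpcV* (SD, n = 3). Wild type replicates 1 to 3 had 73.01, 63.62 and 76.95 TPM, and *bpcV* replicates 1 to 3 had 36.62, 45.80 and 69.16 TPM. Mutant replicates 1 and 2 were below every wild type library, while mutant replicate 3 lay within the wild type range. The counts behind these values were 1282, 940 and 1159 in wild type and 506, 679 and 1157 in *bpcV*, so counting error is small beside this spread. The log2 fold change was −0.49 (SE 0.212, 95% interval −0.97 to −0.0037, a fold of 0.713), with an unadjusted p of 0.0486 and an adjusted p of 0.174 in edgeR's quasi-likelihood test. Without *bpcV* replicate 3 the log2 fold change was −0.79 with an adjusted p of 0.0192, and without *bpcV* replicate 1 it was −0.30 with an adjusted p of 0.225. Over all alternatives the adjusted p of *GIF1* ran from 0.0192 to 0.373, and none was past 0.01.

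*GIF1* shared the order of its mutant libraries with *GRF8* and not with the other *GRF* genes. Within *bpcV*, replicate 2 had the lowest TPM for 7 of the 9 *GRF* genes (*GRF1*, *GRF2*, *GRF3*, *GRF4*, *GRF5*, *GRF7* and *GRF9*), and replicate 1 the highest for 5 (*GRF1*, *GRF2*, *GRF3*, *GRF4* and *GRF6*). Of all tested genes, 36.1% were lowest in replicate 2 among the mutant libraries and 42.4% highest in replicate 1. *GIF1* and *GRF8* were lowest in replicate 1, and *GIF1*, *GRF5*, *GRF7*, *GRF8* and *GRF9* were highest in replicate 3. As in *GIF1*, the lowest value of all 6 libraries was that of *bpcV* replicate 1 in 25.1% of tested genes. The TPM of *GIF1* per summed *GRF* TPM was 0.892, 0.904 and 0.983 in wild type and 0.439, 0.740 and 0.905 in *bpcV*. The co-activator message was therefore low against the *GRF* messages in mutant replicates 1 and 2, below every wild type library. In mutant replicate 3 the ratio was within the wild type range.

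**Figure D3:**
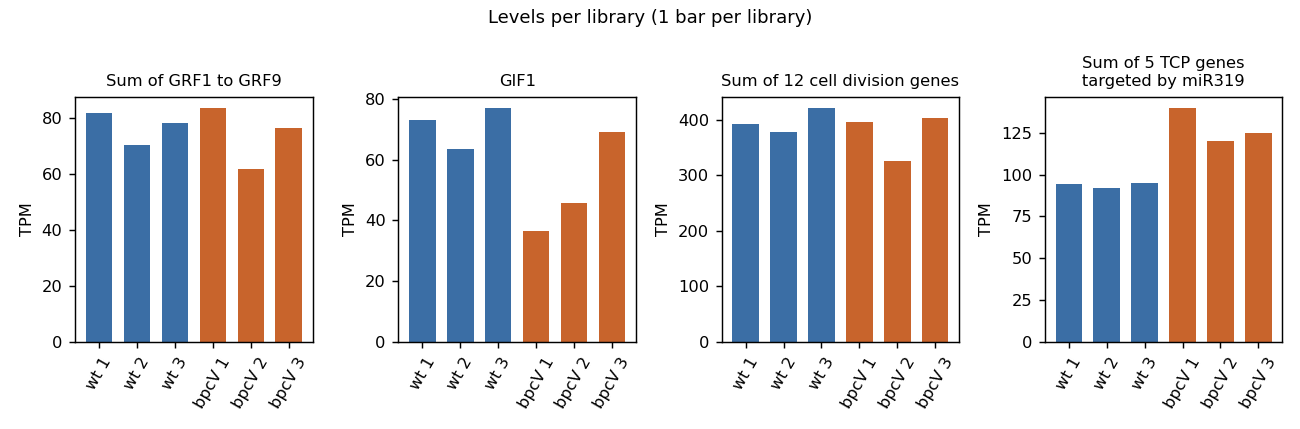
TPM per library, 1 bar each, from 0, for the sum of *GRF1* to *GRF9*, for *GIF1*, for the sum of 12 cell division genes and for the sum of the 5 *TCP* genes targeted by miR319 (wt, wild type). The *GRF* and cell division sums are lowest in *bpcV* replicate 2, *GIF1* is lowest in replicate 1, and the *TCP* sum is above every wild type library in all 3 mutant libraries.

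The spread between libraries was larger in *bpcV* than in wild type for 7 of the 10 genes, as it was for 73.6% of all tested genes. The coefficient of variation (CV) of CPM in wild type was 7.87% for *GIF1*, 7.90% for *GRF7* and 5.63% for *GRF3*. In *bpcV* these genes had 34.4%, 24.6% and 19.3%. *GRF5*, *GRF6* and *GRF8* went the other way, and *GRF6* had 26.3% in wild type and 6.17% in the mutant. Over all tested genes the median CV was 6.68% in wild type and 12.7% in *bpcV*. Of 5470 genes with 30 to 90 CPM, 3.66% had a CV in *bpcV* at or above that of *GIF1*.

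**Figure D4:**
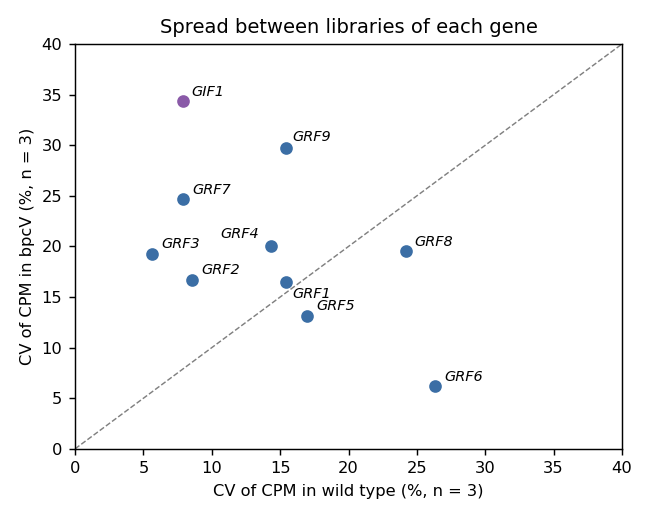
CV of CPM over 3 wild type libraries (x axis, %) against that over 3 *bpcV* libraries (y axis, %), 1 point per gene, with a dashed line of equality. *GIF1*, at 7.87% and 34.4%, lies farthest above the line, and *GRF5*, *GRF6* and *GRF8* lie below it.

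The mutant libraries stood apart from each other in other genes as well. The first principal component held 56.3% of the variance and separated the genotypes, and the second held 20.3%, with *bpcV* replicate 1 at 37.3, replicate 2 at −35.1 and replicate 3 at −11.0. Totals ranged from 16196042 to 21455150 expected counts per library. The summed TPM of 6 flower identity genes, the check on the tissue, was 785.73 to 794.75 in wild type and 775.58, 1011.42 and 899.77 in *bpcV*. For 9 tapetum genes the sum was 212.86 to 408.85 in wild type and 129.83 to 238.41 in *bpcV*, and for 9 pollen genes it was 2368.33 to 2453.56 and 2118.05 to 2843.05. Of the 6 flower identity genes, 0 were called and 1 passed at an FDR of 0.05, with a median log2 fold change of 0.14. In CPM, 3 of them were higher in *bpcV* without overlap, beside 18.2% of tested genes. All 7 tested tapetum genes had log2 fold changes below 0, with a median of −0.66. In CPM, 2 of the 7 were lower without overlap, beside 17.6% of tested genes. At an FDR of 0.01, 0 were called, and 2 passed at 0.05, which 12% of tested genes met in either direction. Of the 9 pollen genes 0 were called, with a median of 0.11. Whether flower stage or cell makeup differs between the mutant libraries, and what part it has in the *GRF* and *GIF1* values, was not tested. The messages of 4 of the 5 mutated genes were down-regulated (*BPC6*, *BPC2*, *BPC1* and *BPC4*), with *BPC6* falling from 51.6 to 2.32 TPM, and *BPC3*, at 4.98 and 6.47 TPM, did not pass the test.

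The *GRF* genes with and without a miR396 site were then set side by side, since repression through miR396 would bear on the 7 genes with a site. The 7 genes with a site had a median log2 fold change of 0.00, with 4 higher and 3 lower. *GRF5* and *GRF6*, without a site, were both lower, with a median of −0.19. The summed TPM of the genes with a site was 69.31, 57.72 and 65.43 in wild type and 71.33, 51.65 and 64.84 in *bpcV*, which overlapped. The sum of *GRF5* and *GRF6* was 12.52, 12.64 and 12.88 TPM in wild type and 12.14, 10.28 and 11.57 TPM in *bpcV*, so all 3 mutant libraries were below wild type, although each gene alone overlapped. Taken singly, 17.6% of tested genes were lower in *bpcV* without overlap in CPM. That share is of single genes and gives no background for a summed TPM. The difference between the classes was not tested. *bHLH74*, a further known miR396 target, had 21.21, 20.41 and 22.30 TPM in wild type and 23.02, 22.63 and 25.58 TPM in *bpcV*. Its values were higher in all 3 mutant libraries than in any wild type library, as in 18.2% of tested genes. The log2 fold change of *bHLH74* was 0.15, with an adjusted p of 0.305 (edgeR).

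Upstream in the pathway, the 5 *TCP* genes that miR319 targets all had higher levels in *bpcV* without overlap, but none passed the threshold. Of all tested genes, 18.2% were higher in *bpcV* without overlap. *TCP4* had 19.19, 18.25 and 17.75 TPM in wild type and 23.49, 24.23 and 23.51 TPM in *bpcV*. The log2 fold change of *TCP4* was 0.41 (SE 0.0773, 95% interval 0.23 to 0.58) with an adjusted p of 0.0137 (edgeR). *TCP3* (0.44), *TCP10* (0.48) and *TCP24* (0.55) had adjusted p-values of 0.0230, 0.0258 and 0.0166, and *TCP2* (0.33) had 0.0723. At an FDR of 0.05, which 5.69% of tested genes met in the higher direction, 4 of these 5 passed. DESeq2 called 3 and the likelihood ratio test 4 of them at 0.01, and without *bpcV* replicate 1 the quasi-likelihood test called 1. The 4 that passed at 0.05 became 0 without wild type replicate 1 or 2, 1 without wild type replicate 3 and 2 without *bpcV* replicate 3. In those fits the calls at 0.01 over all genes also fell, from 809 to between 167 and 256. The number passing at 0.05 was 4 without *bpcV* replicate 1 and 5 without *bpcV* replicate 2. All 5 stayed higher whichever library was left out. Their summed TPM was 94.65, 92.20 and 95.21 in wild type and 139.71, 120.37 and 124.84 in *bpcV*.

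In the same libraries the 5 *TCP* messages had a median log2 fold change of 0.44 and the 7 *GRF* messages with a miR396 site one of 0.00. The median of the *GRF* messages was −0.17 without *bpcV* replicate 3 and 0.17 without *bpcV* replicate 2, and that of the *TCP* messages ran from 0.38 to 0.48 when single libraries were left out. In mutant replicate 1, where the *TCP* sum was the highest at 139.71 TPM, the sum of the *GRF* genes with a site was also the highest of the 6 libraries, 71.33 TPM. That sum was 69.31 TPM in wild type replicate 1. Among the mutant libraries, 42.4% of all tested genes were highest in replicate 1. Whether the *TCP* and *GRF* sums are related was not tested. Among the *TCP* genes of the same type without a miR319 site, *TCP13* was down-regulated. It had 25.28, 24.62 and 24.81 TPM in wild type and 9.88, 13.34 and 10.09 TPM in *bpcV*, a log2 fold change of −1.18 (SE 0.126, adjusted p of edgeR 0.00134). The values of *TCP5* (−0.13) and *TCP17* (−0.27) overlapped between genotypes.

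The step between TCP4 and the *GRF* genes was not measured. *MIR396A* and *MIR396B* were listed at 0 counts in all 6 libraries, but the effective length of their gene models was at most 2.32 bases and 0 bases, since the models are shorter than nearly all sequenced fragments. A count of 0 there sets no limit on the precursors, and mature microRNAs have no poly-A tail for the selection used. *MIR319A* and *MIR319C* were at 0 as well, and *MIR319B* had 3 counts in all, 1 in wild type replicate 2 and 2 in *bpcV* replicate 3. Of 7 genes that make or load microRNAs, such as *DCL1* and *AGO1*, 0 were called, with a median of −0.20. In CPM, 1 of the 7 was higher and 3 were lower in *bpcV* without overlap, beside 18.2% and 17.6% of tested genes. At an FDR of 0.05, 1 passed, as lower, beside 12% of tested genes in either direction.

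The partners of the GRF proteins were likewise not called. *GIF2* (AT1G01160), which overlaps with *GIF1* in function, had 49.17, 48.93 and 55.89 TPM in wild type and 42.98, 46.64 and 46.24 TPM in *bpcV*. Its mutant libraries were all lower, as in 17.6% of tested genes, and its log2 fold change was −0.18 with an adjusted p of 0.224 (edgeR). *GIF3* had 6.22 ± 0.727 and 6.26 ± 1.58 TPM. Of 13 SWI/SNF subunit genes, which encode the remodelling complex that GIF proteins recruit, 0 were called and the median was −0.02.

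Genes of cell division, reported GRF-GIF targets and genes of organ growth were read against the 3.89% of all tested genes that were called. The target and organ growth lists mix directions, with *DREB2A*, which GRF7 represses, and a gene that limits organ size among them. Their medians therefore do not measure GRF-GIF activity. Of 12 cell division genes, cyclins and their kinases among them, 0 were called, with 4 higher, 8 lower and a median of −0.04. Their summed TPM was 393.17, 377.41 and 421.01 in wild type and 395.73, 325.68 and 404.02 in *bpcV*, lowest in the library in which 7 of the *GRF* genes were lowest among the mutants. Of 6 genes reported as GRF-GIF targets, *DREB2A*, *KNAT2*, *STM* and *CUC1* to *CUC3*, 0 were called, with a median of −0.04. Of 13 tested genes of organ growth, 0 were called as higher and 1 as lower. Their median was −0.13, with 4 higher and 9 lower. Unadjusted p of edgeR was under 0.05 in 7 of the 13, against 28.3% of all tested genes. In CPM, 2 were higher and 6 lower in *bpcV* without overlap, beside 18.2% and 17.6% of tested genes. The gene called was *BIG BROTHER* (*BB*), which encodes an E3 ubiquitin ligase that limits organ size. *BB* had 13.67, 13.93 and 15.53 TPM in wild type and 8.00, 7.27 and 8.43 TPM in *bpcV*, a log2 fold change of −0.86 (SE 0.118, adjusted p of edgeR 0.00366).

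BPC proteins bind GA repeats, so the promoters of the 10 genes, from 250 bases before to 50 bases after the annotated start in TAIR10.1, were scanned for 3 short strings in either orientation. GAGAGA was present in 6 of the 10, *GRF1*, *GRF3*, *GRF4*, *GRF5*, *GRF8* and *GRF9*, and in 29.2% of the 27443 promoters of protein-coding genes. *GRF4* and *GRF5* had 3 matches each, counting overlapping ones, and the others 1. The promoters of *GRF2*, *GRF6*, *GRF7* and *GIF1* had none. TGGTCC, a core that CINCINNATA-type TCP factors bind, was in the windows of *GRF2* and *GRF5* and in 6.99% of the protein-coding promoters. TGTCAGG, reported as bound by GRF7, was in none of the 10 and in 0.896% of the protein-coding promoters. None of these strings is part of another.

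Reads of the 10 genes did not have to be divided with other listed genes, as all 10 had whole expected counts in every library. *GRF1*, *GRF3*, *GRF7* and *GRF9* overlap genes on the opposite strand in TAIR10.1, by 23 bases in *GRF1* and by up to 244 bases in *GRF7*. The partners that overlap *GRF7* by 244 bases and *GRF3* by 227 bases are not among the listed genes. Whole counts cannot show shared reads with those partners. Whether the counting used strand is not given in the sources used here, so reads from an overlapping partner cannot be told apart in those ends. *GRF2*, *GRF4*, *GRF5*, *GRF6*, *GRF8* and *GIF1* have no such overlap.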

How the data were processed

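RNA selected for poly-A was sequenced in paired ends from 3 wild type and 3 *bpcV* samples. Per the labels and methods, the authors used bowtie2 to align reads to TAIR10 transcripts and RSEM to estimate levels, whose versions are not given in the sources used here. The deposited expected counts are RSEM estimates for 32678 genes, not normalized. The deposited TPM values are scaled by effective length and library, and the deposited effective lengths, in bases, served to judge the microRNA loci. A further deposited table holds 6 columns of values per library and the fold changes and p-values of the authors' edgeR comparison, and it was not used.

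For the comparison, expected counts were rounded to whole numbers. Low genes were removed by filterByExpr, with 10 as the minimum count and 15 as the minimum total. TMM factors scaled the libraries and also gave the CPM values. The test was edgeR's quasi-likelihood test (edgeR 4.0.16, R 4.3.3) with a single term for genotype. Its p-values were adjusted by Benjamini and Hochberg's method over 20813 genes, with a threshold of 0.01, following the study's methods. The libraries had a common biological coefficient of variation of 13.0%. The standard error is the absolute log2 fold change divided by the square root of F. The smallest p-value of an exact permutation test is 0.1 with 3 libraries a genotype. The script was tested on simulated data. Nothing says that the samples came from separate plants beyond the word biological for the replicates, so p-values measure the spread between these samples.

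Alternatives were DESeq2 1.42.0, RLE and upper-quartile factors, library totals, no filter, at least 10 counts in every library, unrounded counts, the likelihood ratio test, limma 3.58.1 after adding 1 or 0.1 to TPM and taking log2 (genes with a mean TPM of 1 or more), a block for the replicate number, an FDR of 0.05 and each library left out. Wild type replicates 1 to 3 had totals of 21455150, 17777219 and 18027075 expected counts. The totals of *bpcV* replicates 1 to 3 were 16196042, 18335285 and 19951509. Sites, promoters and positions come from the RefSeq genome and annotation of TAIR10.1 (Python 3.11.15). The files hold no coordinates, and genes were joined by locus identifier.

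The 10 genes and the gene lists were chosen with earlier results of these data known. All 10 genes were named, with *GIF2*, *GIF3*, *bHLH74*, the miR396 and miR319 loci and the *TCP* genes that miR319 targets, and, of the other lists, each gene past the threshold. *TCP5*, *TCP17* and *BPC3* are named to complete their lists.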

Additional observations from a re-analysis of the deposited data

How the results depend on the processing

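None of the 10 genes was called under any of the alternatives (0 of 170 values past an FDR of 0.01), and 154 of the 170 kept their direction. The sign turned in 16 values, in 4 genes whose differences were near 0. *GRF7* had 0.00 and turned to −0.0036 with DESeq2, −0.0068 with RLE factors, −0.011 with at least 10 counts in every library, −0.015 and −0.022 with limma on log2 TPM plus 1 or 0.1, −0.013 with the replicate number as a block, and −0.18 to 0.18 when single libraries were left out. Single libraries moved *GRF3* from −0.25 to 0.033, *GRF5* from −0.20 to 0.053 and *GRF9* from −0.23 to 0.17, and the median of the 7 *GRF* genes with a site from −0.17 (without *bpcV* replicate 3) to 0.17 (without *bpcV* replicate 2). No *GRF* gene had a site when no unpaired base was allowed (0 genes), and 7 had one with a limit of 3.

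The number of all genes called, 809, was 1790 with DESeq2, 2233 with the likelihood ratio test, 532 with limma on log2 TPM plus 0.1, 408 with the block and 2506 at an FDR of 0.05. Leaving out single libraries gave 167 to 1249, with 172, 167 and 204 without wild type replicates 1 to 3, 1249 without *bpcV* replicate 1 and 256 without *bpcV* replicate 3. The number of CINCINNATA-type *TCP* genes called, 1, was 4 with DESeq2, 5 with the likelihood ratio test, 5 at an FDR of 0.05 and 0 to 2 without single libraries. In organ growth, 1 became 2 with DESeq2, 3 with the likelihood ratio test, 0 with the block and 3 at an FDR of 0.05. It was 0 to 1 without single libraries. The median of organ growth became −0.30 with DESeq2 and −0.29 without the filter. Both of these fits also held a gene of that list, at 0 to 3 counts a library, that the filter removes from the main fit. *BB* was the gene lost under the block and *TCP13* and *BB* are the calls that single libraries removed. At an FDR of 0.05, 1 microRNA processing gene and 1 cell division gene passed. The median of the 7 microRNA processing genes ran from −0.29 to −0.045 without single libraries. The cause of these changes was not tested. The sources used here do not say whether equal replicate numbers pair the samples, so the block rests on a shared number only. The correlations of same-numbered deviations were −0.0193, −0.0129 and 0.177. Those of differently numbered samples ran from −0.139 to 0.133. With so few samples these values cannot settle whether the samples were paired. Precision was lowest for the *GRF* genes with few counts, such as *GRF6* with 44 to 70 a library (SE 0.227), and highest for *GRF3* (SE 0.139).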
